A study of Mus musculus with 4 samples.

Results

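DNA replication and S-phase genes form a set of 42 genes, out of the 32285 in the feature list, whose products license replication origins, unwind and copy DNA, supply nucleotides, repack chromatin and control entry into S phase. They were taken by their gene symbols. All 42 had enough counts to be tested between genotypes, with at least 86 unique molecular identifiers (UMIs, barcodes that mark single RNA molecules before amplification) in every mouse. The question put to them was whether they change together with the mitotic genes.

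Before S phase, the loading factors Cdc6 and Cdt1 place the MCM helicase on origins. Cdc45 and the GINS complex then turn it into an active helicase, and polymerases with the sliding clamp PCNA and its loader copy the strands. Transcription of many of these genes is driven by E2F factors ahead of S phase, whereas most mitotic genes are transcribed later, in G2. Microglia, the resident macrophages of the brain, divide slowly at rest and proliferate around lost myelin.

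Single-cell RNA sequencing was performed on cells sorted for CD45 and CD11b from the brains of 2 PRMT1FL and 2 PRMT1Cx3cr1-KO mice, 1 library per mouse. PRMT1FL mice carried floxed Prmt1 alleles without the recombinase and are labelled wild type, and PRMT1Cx3cr1-KO mice carried the same alleles with a tamoxifen-inducible Cre driven by Cx3cr1, which is active in microglia and in other macrophages. According to the methods, both were injected with tamoxifen on the C57BL/6 background. All 4 mice were fed cuprizone (CPZ), a copper chelator that strips myelin, at 0.2% of the diet for 5 wk, so that no mouse on a normal diet stands beside them. The labels give an age of 5-6 wk for the diet, whereas the methods give that age for the tamoxifen and start the diet later.

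The 4 libraries held 76943248 to 99559644 UMIs, and 7910 to 11075 cells per mouse were kept as microglia, with a median of 6195 to 7079 UMIs per cell. All 7 microglial markers were detected in every mouse, with a summed level of 10544 to 11767 CPM (UMIs scaled to the same total in every mouse; levels of single replication and mitotic genes below are also scaled by the TMM factors of edgeR, whereas sums over lists and the marker levels are not). Of the 7 markers, Cx3cr1, the gene whose driver carries the Cre, measured 1441 and 1539 CPM in PRMT1FL mice and 846 and 839 CPM in PRMT1Cx3cr1-KO mice. P2ry12 and Tmem119 were higher in both PRMT1Cx3cr1-KO mice. The lower Cx3cr1 level goes with the genotype, so its part in the results below cannot be told apart from that of Prmt1. Between 31 and 46 barcodes were shared by any pair of libraries, at most 0.555% of the smaller one. The 7 markers of border-associated macrophages left in the microglia summed to 26.3 and 32.3 CPM in PRMT1FL mice and 42.2 and 111 CPM in PRMT1Cx3cr1-KO mice; the last value came mostly from Pf4, at 96.2 CPM in mouse 2. Prmt1 itself measured 93.4 and 86.0 CPM in PRMT1FL mice and 69.9 and 67.6 CPM in PRMT1Cx3cr1-KO mice, with a log2 fold change of -0.38 (SE 0.07, adjusted p = 0.0752, edgeR). The order of the genotypes fitted the labels, although counts per gene do not separate intact from recombined alleles.

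Promoter sequence was examined because E2F sites upstream of replication genes are the textbook link between them. RefSeq promoters (GRCm38.p6) were matched for 34 of the 42 genes, and the 250 bases before each start were searched on both strands for the E2F-type octamers TTTCCCGC, TTTCGCGC, TTTGCCGC and TTTGGCGC, which may overlap one another. At least 1 match was found in 9 of the 34 promoters (26.5%), against 409 of the 10447 promoters of genes tested here (3.92%) and 1 of 25 promoters of the mitotic list (4%). The hexamers TTTGAA and TTCGAA, which resemble the CHR element of mitotic promoters, were found in 5 of 34 replication promoters (14.7%), in 10 of 25 mitotic promoters (40.0%) and in 15.1% of the promoters of genes tested. By role, 4 of 7 licensing promoters held an E2F-type octamer, 2 of 10 of the fork group and 3 of 6 of the chromatin group. None was found in the 2 helicase activation, 6 nucleotide supply and 3 control promoters. These numbers are too small to set the roles apart. A match is a description of letters and not a measured binding site. For each of the 3 groups with any match, 1 promoter is shown, Mcm6 as the one with the most matches in licensing, and Pola1 and Cdca7 as first by symbol among ties of 1 match each (with Rfc3, and with Hells and Uhrf1); sequences run 5′ to 3′ along the gene, with the octamers in capitals.
Mcm6: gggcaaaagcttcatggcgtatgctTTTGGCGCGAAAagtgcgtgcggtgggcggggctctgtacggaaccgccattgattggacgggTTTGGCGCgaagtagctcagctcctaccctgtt
Pola1: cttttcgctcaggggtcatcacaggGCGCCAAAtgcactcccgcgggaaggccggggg
Cdca7: tgcgtcccggcGCGGGAAAgccggtggccc
The Mcm6 window lies at chr1:128359720-128359840 on the minus strand and holds 3 octamers, of which the first pair overlaps in the run TTTGGCGCGAAA. The Pola1 window lies at chrX:93632261-93632318 on the minus strand, with its octamer starting 138 bases before the gene's start. The Cdca7 window lies at chr2:72476137-72476166 on the plus strand, with its octamer starting 71 bases before the RefSeq start; its end overlaps an exon that GENCODE annotates for the same gene. Mcm6 is a subunit of the helicase ring, Pola1 the catalytic subunit of polymerase alpha and Cdca7 a chromatin protein.

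Summed over the 42 genes, the level was 512 and 505 CPM in PRMT1FL mice and 590 and 697 CPM in PRMT1Cx3cr1-KO mice, a ratio of means of 1.27, or 1.20 after TMM scaling. Both PRMT1Cx3cr1-KO mice lay above both PRMT1FL mice, and the 2 PRMT1Cx3cr1-KO mice were further apart (SD 75.4) than the PRMT1FL mice (SD 5.04). The 30 genes of the mitotic list summed to 343 and 337 CPM in PRMT1FL mice and to 483 and 685 CPM in PRMT1Cx3cr1-KO mice, a ratio of 1.72, or 1.63 after TMM scaling. The replication sum divided by the mitotic sum was therefore 1.49 and 1.498 in PRMT1FL mice, against 1.22 and 1.02 in PRMT1Cx3cr1-KO mice, with no overlap between genotypes. In bulk sums of this kind, more cells in cycle and more RNA per cell cannot be told apart.

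**Figure D1:**
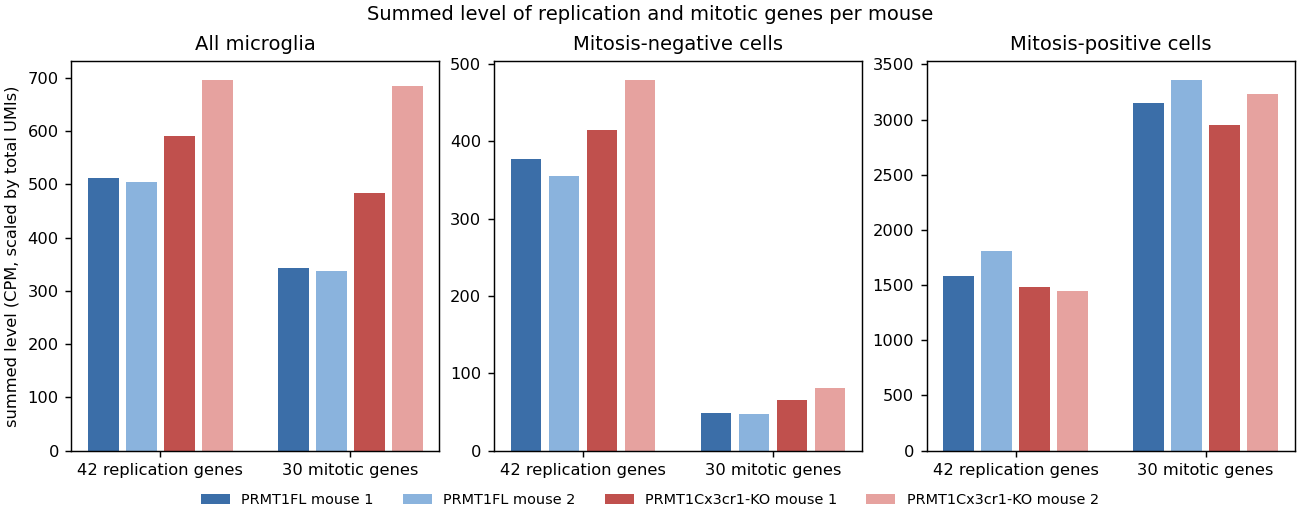
Summed level, in CPM, of the 42 replication genes and the 30 mitotic genes, 1 bar per mouse, in all microglia and in cells without and with mitotic transcripts (each panel has its own scale from 0). In all microglia both sums were higher in both PRMT1Cx3cr1-KO mice, the mitotic one by the larger factor (1.72 against 1.27); within mitosis-positive cells the replication sum was lower in both PRMT1Cx3cr1-KO mice.

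Taken singly, 41 of the 42 genes had a log2 fold change above 0, with a median of 0.36, beside a median of 0.00 over the 13948 genes tested. No replication gene passed an adjusted p of 0.05 by the quasi-likelihood test of edgeR, after Benjamini-Hochberg adjustment, where 0.459% of all genes passed upward and 0.165% downward. The lowest adjusted p among them was 0.0692. At an unadjusted p of 0.05, 29 of the 42 were higher in PRMT1Cx3cr1-KO mice, against 9.94% of all genes, and none was lower. In 35 of the 42 genes both PRMT1Cx3cr1-KO mice lay above both PRMT1FL mice, an order seen in 26.3% of all genes. DESeq2 called 5 of the 42 (Mcm6, Dut, Tyms, Tk1 and Rrm2), all higher, where it called 2.89% of all genes higher.

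PRMT1Cx3cr1-KO mouse 2 lay above mouse 1 in 38 of the 42 genes and in all 30 mitotic genes, whereas PRMT1FL mouse 2 lay above mouse 1 in 21 and 13. Without PRMT1Cx3cr1-KO mouse 1, 32 of the 42 genes were called higher by edgeR, with a median log2 fold change of 0.43, where 8.01% of all genes were called higher. Without mouse 2, 2 were called (Tk1 and Rrm2), with a median of 0.25, a share near the 3.45% of all genes. Without either PRMT1FL mouse 0% of all genes were called higher, so that the same result for the 42 genes says nothing about them. The test was run on UMIs summed per mouse, and with all mice in the fit p-values measure the spread between 2 mice per genotype. A comparison of genotypes without 1 mouse leaves its genotype with a single mouse. The spread between mice then comes from the other genotype alone. Counts of genes called in such fits, here and below, therefore rest on a genotype without replicates.

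Among the 8 licensing genes, which load the helicase, all log2 fold changes were above 0 (median 0.31, range 0.16 to 0.62). Of the 8, 6 were higher at an unadjusted p under 0.05, against 9.94% of all genes. Mcm3, a helicase subunit, measured 41.2 and 39.2 CPM in PRMT1FL mice and 43.3 and 48.0 CPM in PRMT1Cx3cr1-KO mice. The genotypes did not overlap, with a log2 fold change of 0.18 (SE 0.07, adjusted p = 0.243, edgeR). For Mcm6 the levels were 20.03 and 18.7 CPM against 23.1 and 27.0 CPM, again without overlap (log2 fold change 0.37, SE 0.09, adjusted p = 0.119). Cdc6, the loading ATPase, measured 1.09 and 1.19 CPM against 1.45 and 2.03 CPM and had the largest difference of this group (log2 fold change 0.62, SE 0.22, adjusted p = 0.200). Mcm2 was the exception in order: PRMT1Cx3cr1-KO mouse 1, at 8.62 CPM, lay below PRMT1FL mouse 2, at 8.99 CPM.

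The 4 helicase activation genes had log2 fold changes of 0.26 to 0.50. Gins2, a GINS subunit, measured 10.3 and 10.6 CPM in PRMT1FL mice and 12.5 and 13.8 CPM in PRMT1Cx3cr1-KO mice (log2 fold change 0.34, SE 0.08, adjusted p = 0.108, edgeR). Gins1, of the same complex, stood at 9.68 and 9.27 CPM against 11.5 and 11.4 CPM (0.27, SE 0.07, adjusted p = 0.135). Both genes separated the genotypes with little spread within either. Mcm10, which helps to open the helicase, measured 1.85 and 1.65 CPM against 2.09 and 2.84 CPM (log2 fold change 0.50, SE 0.19, adjusted p = 0.232), so that most of its difference lay in PRMT1Cx3cr1-KO mouse 2.

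The 12 genes of fork synthesis had a median log2 fold change of 0.31 and ran from 0.08 for Pold1, the catalytic subunit of polymerase delta, to 0.56 for Dscc1. Pcna, the sliding clamp, was among the least changed, with 62.4 and 62.6 CPM in PRMT1FL mice and 65.3 and 68.7 CPM in PRMT1Cx3cr1-KO mice (log2 fold change 0.10, SE 0.06, adjusted p = 0.404, edgeR). Its levels did not overlap between genotypes, but the step was small. Rfc3, a subunit of the clamp loader, measured 19.9 and 17.5 CPM against 21.6 and 24.6 CPM (0.30, SE 0.10, adjusted p = 0.176). Dscc1, of an alternative clamp loader, measured 1.43 and 1.27 CPM against 1.80 and 2.20 CPM (0.56, SE 0.18, adjusted p = 0.170). Pold1 overlapped, with 4.76 and 4.18 CPM against 4.60 and 4.86 CPM.

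The 6 nucleotide supply genes had the highest median of the 6 role groups, 0.44. Each was higher at an unadjusted p under 0.05, against 9.94% of all genes. Tk1, thymidine kinase (chromosome 11, 117815526 to 117826092, minus strand), measured 8.79 and 10.0 CPM in PRMT1FL mice and 13.8 and 16.7 CPM in PRMT1Cx3cr1-KO mice. Its log2 fold change, 0.70 (SE 0.12, adjusted p = 0.0714, edgeR), was the largest among the 42. Rrm2, the small subunit of ribonucleotide reductase whose supply is tied to S phase (chromosome 12, 24708241 to 24714146, plus strand), stood at 9.53 and 10.2 CPM against 14.1 and 17.0 CPM (0.65, SE 0.11, adjusted p = 0.0692). Rrm1, the large subunit of the same enzyme, differed less, at 14.5 and 13.1 CPM against 16.5 and 19.5 CPM (0.38, SE 0.10, adjusted p = 0.134). Tyms, thymidylate synthase, measured 19.4 and 20.4 CPM against 23.8 and 28.5 CPM (0.39, SE 0.10, adjusted p = 0.115). Over the alternatives the adjusted p of Tk1 ran from 3.98e-06 to 0.533, and its log2 fold change from 0.55 to 0.84.

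The 7 chromatin and histone genes fell into a part near 0 and a part with values of 0.38 or more. Slbp, which binds the stem-loop of histone mRNAs, measured 47.9 and 44.7 CPM in PRMT1FL mice and 50.1 and 46.2 CPM in PRMT1Cx3cr1-KO mice (log2 fold change 0.06, SE 0.07, adjusted p = 0.709, edgeR). Atad2, a chromatin ATPase, stood at 28.1 and 29.1 CPM against 26.9 and 31.1 CPM (0.02, SE 0.09, adjusted p = 0.911). The genotypes overlapped for both genes. Cdca7 was the only one of the 42 with a value below 0, at 13.8 and 12.8 CPM against 11.5 and 14.2 CPM (-0.05, SE 0.12, adjusted p = 0.849). Uhrf1, which guides maintenance DNA methylation behind the fork, measured 5.82 and 5.53 CPM against 6.92 and 9.24 CPM (0.51, SE 0.15, adjusted p = 0.144), and Chaf1a, Chaf1b and Hells had values of 0.38 to 0.47.

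The 5 control genes had a median of 0.36. Usp1, a deubiquitinase that acts on PCNA, measured 21.5 and 19.8 CPM in PRMT1FL mice and 23.2 and 26.4 CPM in PRMT1Cx3cr1-KO mice (log2 fold change 0.26, SE 0.09, adjusted p = 0.183, edgeR). E2f1, the transcription factor, stood at 12.2 and 14.3 CPM against 14.1 and 17.3 CPM (0.24, SE 0.13, adjusted p = 0.335). Ccne2, cyclin E2, measured 2.84 and 3.30 CPM against 3.25 and 5.77 CPM (0.56, SE 0.27, adjusted p = 0.304). For E2f1 and Ccne2 PRMT1Cx3cr1-KO mouse 1 lay within the PRMT1FL range and mouse 2 above it. Clspn and Ccne1 had log2 fold changes of 0.52 and 0.36.

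**Figure D2:**
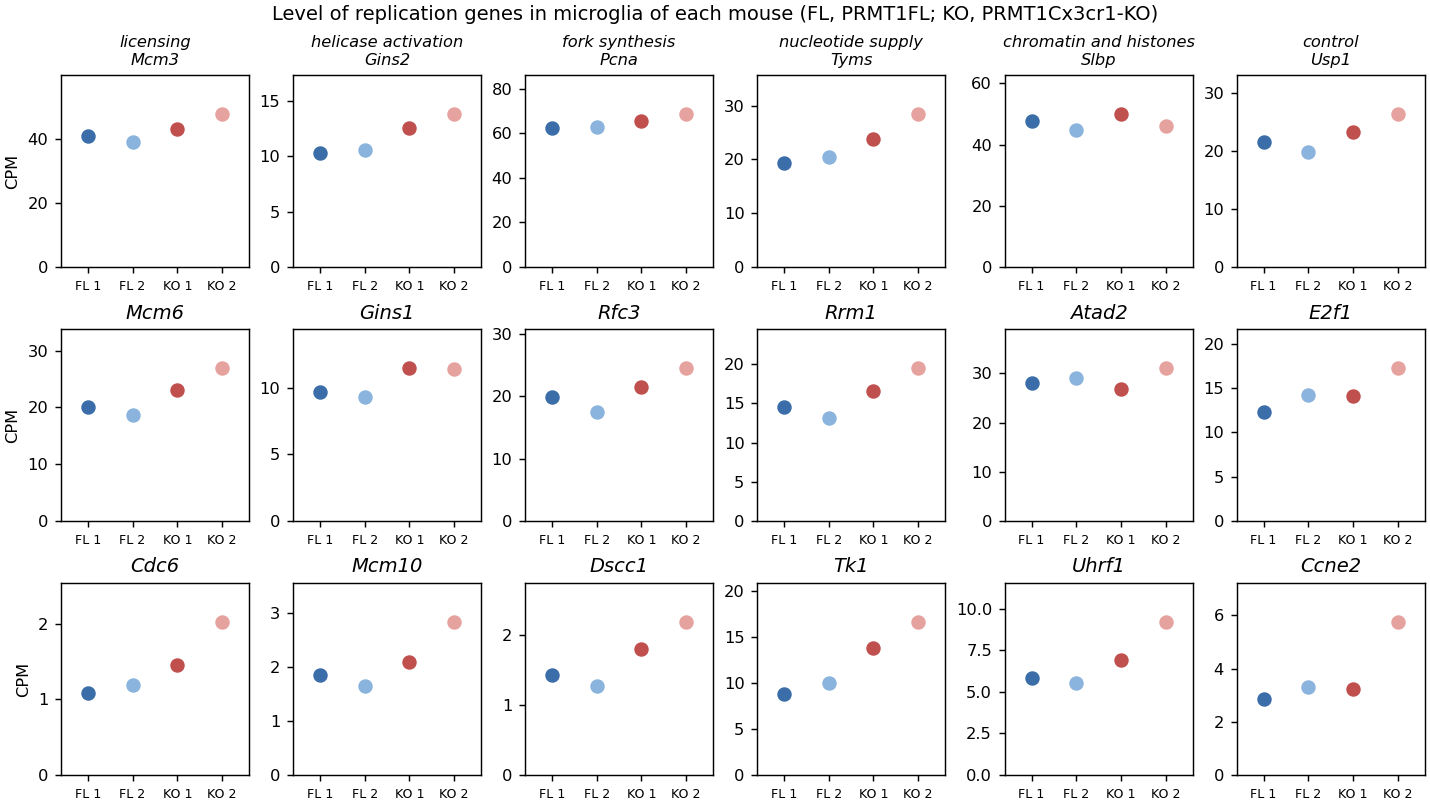
Level in CPM (vertical axes, each from 0) of 18 replication genes in the microglia of each mouse, 1 point per mouse, in columns by role. Slbp, Atad2, E2f1 and Ccne2 overlap between genotypes. In the other genes shown, from every role group, both PRMT1Cx3cr1-KO mice stand above both PRMT1FL mice, an order seen in 26.3% of all genes.

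None of the 30 mitotic genes passed the threshold either (lowest adjusted p = 0.0502, edgeR), but their median log2 fold change was 0.73. All 30 were higher at an unadjusted p under 0.05, against 9.94% of all genes. In all 30, both PRMT1Cx3cr1-KO mice lay above both PRMT1FL mice, an order seen in 26.3% of all genes. Of these, Mki67, a marker of cycling cells, measured 24.8 and 25.1 CPM in PRMT1FL mice and 33.1 and 52.9 CPM in PRMT1Cx3cr1-KO mice (log2 fold change 0.79, SE 0.20, adjusted p = 0.123). Birc5, of the chromosomal passenger complex, measured 24.8 and 22.8 CPM against 35.4 and 51.3 CPM (0.86, SE 0.17, adjusted p = 0.0835). Ube2c, which works with the anaphase-promoting complex, measured 32.0 and 31.6 CPM against 42.6 and 59.2 CPM (0.68, SE 0.15, adjusted p = 0.0951), and Cenpa, the centromeric histone, 28.6 and 27.8 CPM against 39.3 and 53.8 CPM (0.73, SE 0.14, adjusted p = 0.0853). Mitotic genes were called in several alternatives, among them 23 of 30 by DESeq2, where 2.89% of all genes were called higher. The median log2 fold change of the mitotic genes was 0.92 without PRMT1Cx3cr1-KO mouse 1 and 0.45 without mouse 2. No replication gene had a log2 fold change above the 0.70 of Tk1, whereas 18 of the 30 mitotic genes lay above the highest of them. Of 52 further genes of the replication pathway that are not among the 42, such as origin recognition subunits, none passed the threshold. A value above 0 was found in 37 of them, against 49.2% of all genes, and their median was 0.11. At an unadjusted p of 0.05, 16 of the 52 were higher, against 9.94% of all genes. At the same limit 1 of the 52 was lower, against 1397 of the 13948 genes tested. The lowest adjusted p among them was 0.0541.

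**Figure D3:**
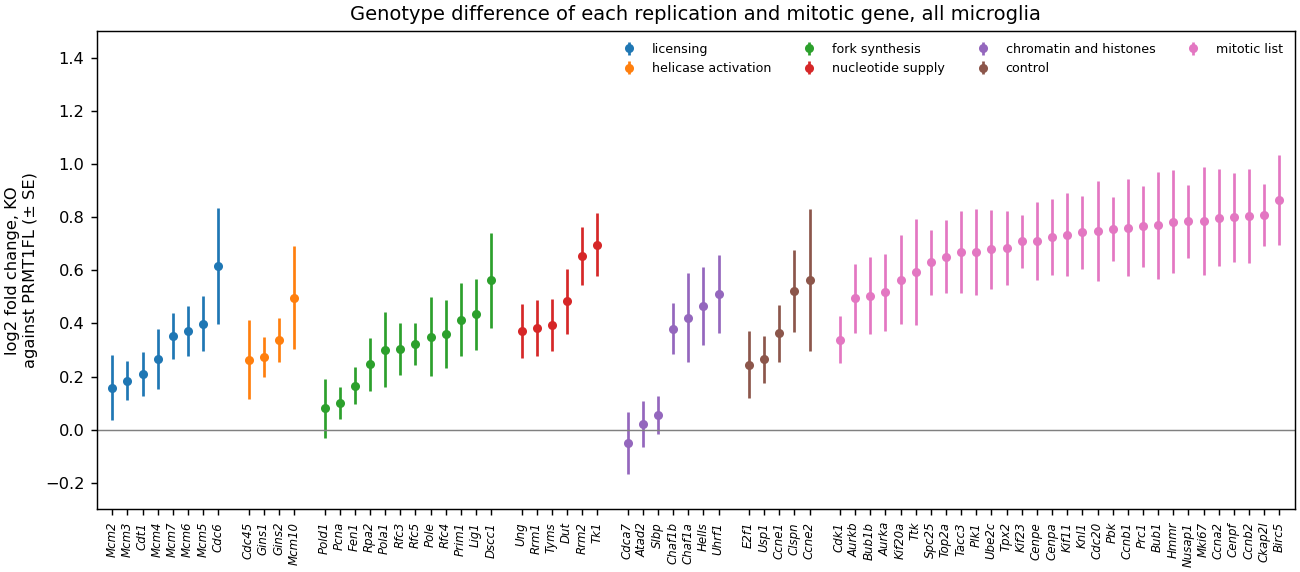
Log2 fold change between genotypes in all microglia (vertical axis, points with SE bars from edgeR) of each replication gene by role group and of each mitotic gene, sorted within groups. Replication genes run from -0.05 to 0.70 and mitotic genes from 0.34 to 0.86.

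To ask whether the difference lay in dividing cells, microglia with at least 2000 UMIs were thinned to 2000 UMIs each and divided by the mitotic list alone. Cells with UMIs of 2 or more of its genes were called mitosis-positive and cells with none mitosis-negative, and all UMIs of the cells of a class were then summed per mouse. The mitosis-positive class took up 7.09 and 6.31% in PRMT1FL mice, against 10.9 and 15.2% in PRMT1Cx3cr1-KO mice, and mitosis-negative cells 82.7 and 84.1% against 76.9 and 71.0%. Cells of the positive class were deeper before thinning, with medians of 8404 to 10399.5 UMIs against 6664.5 to 7433. Thinning hides some mitotic transcripts, so the negative class still held 49.1 and 46.9 CPM of mitotic genes in PRMT1FL mice and 65.5 and 81.4 CPM in PRMT1Cx3cr1-KO mice.

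Over the 4 mice, with the mouse as a block, edgeR called all 42 replication genes higher in mitosis-positive than in mitosis-negative cells. Of the 13437 genes tested, 25.3% were called higher. The median log2 difference was 2.06, from 0.43 for Cdca7 (adjusted p = 0.00152) to 5.55 for Rrm2. Rrm2 measured 1.34, 0.924, 1.99 and 2.85 CPM in the mitosis-negative cells of the 4 mice (PRMT1FL first) and 83.3, 102, 84.0 and 74.9 CPM in their mitosis-positive cells. Tk1 followed, with a log2 difference of 4.65 (SE 0.17). Control genes had the highest group median, 3.56, followed by nucleotide supply at 2.90, and licensing the lowest, 1.43. Slbp (0.69, SE 0.05) and Cdt1 (0.81, SE 0.11) came next above Cdca7 at the lower end.

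Nevertheless, with classes set after thinning to 2000 UMIs, most replication UMIs came from cells outside the positive class. Mitosis-positive cells gave 26.0 and 28.4% of the UMIs of the 42 genes in PRMT1FL mice, 32.7 and 36.6% in PRMT1Cx3cr1-KO mice, and 76.9 to 82.9% of mitotic UMIs over the 4 mice. The same cells gave 8.38 and 7.94% of all UMIs in PRMT1FL mice, against 12.99 and 17.6% in PRMT1Cx3cr1-KO mice. Single genes differed widely in this share. For Rrm2 it was 76.1 and 81.2% in PRMT1FL mice, against 78.3 and 76.3% in PRMT1Cx3cr1-KO mice, and for Tk1 it lay between 67.9 and 72.9%. For Pcna it was 19.9 and 21.5% against 26.6 and 31.9%, and for Cdca7 13.7 and 10.8% against 17.3 and 17.4%. All these shares depend on the thinning, which leaves some cells with mitotic transcripts outside the positive class. Without thinning that class took up 15.6 and 15.7% of PRMT1FL microglia, against 21.8 and 28.99% of PRMT1Cx3cr1-KO microglia. A cell of that class held on average 12.7 and 15.4 replication UMIs in PRMT1FL mice, against 12.4 and 13.9 in PRMT1Cx3cr1-KO mice. Cells without a mitotic UMI held 2.14 and 2.29, against 2.14 and 2.36. By these means, the cell numbers and the summed levels, most replication UMIs of both PRMT1Cx3cr1-KO mice lay inside this larger class. In PRMT1FL mice the parts inside and outside it were near equal. That most of them came from outside the positive class therefore holds only for the thinned classes.

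In mitosis-negative cells 41 of the 42 genes had a log2 fold change above 0 between genotypes, with a median of 0.33, and 1, Tk1, passed the threshold, where 0.618% of 13440 genes were called higher. Tk1 measured 1.65 and 1.83 CPM in PRMT1FL mice and 3.86 and 4.27 CPM in PRMT1Cx3cr1-KO mice (log2 fold change 1.22, SE 0.15, adjusted p = 0.0292, edgeR). The genotypes did not overlap, and the spread within each was small beside the step between them. Rrm2 and Ccne2 had values of 1.09 and 1.06 without passing (adjusted p = 0.119 and 0.163). Without PRMT1FL mouse 1 or mouse 2 none of the 42 was called, where only 0.00723% and 0.0145% of all genes were, and without PRMT1Cx3cr1-KO mouse 1, 18 were, beside 5.29% of all genes. Atad2 was the gene below 0, at -0.08. With the negative class limited to cells without a single mitotic UMI before thinning, a choice made after seeing the data, 40 genes could be tested and none passed in edgeR, where 0.96% of all genes were called higher. Of the 40, 8 were higher at an unadjusted p of 0.05, against 9.36% of all genes, and 35 had values above 0 (median 0.22). Tk1 then had a value of 1.01 (SE 0.28, adjusted p = 0.129).

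In mitosis-positive cells the estimates pointed the other way. All 42 genes had a log2 fold change below 0, with a median of -0.25 beside 0.00 over the 11186 genes tested, and none was called lower by edgeR, where 0.375% of all genes were. At an unadjusted p of 0.05, 20 of the 42 were lower, against 5.99% of all genes. Their summed level was 1586 and 1808 CPM in PRMT1FL mice and 1485 and 1449 CPM in PRMT1Cx3cr1-KO mice, a ratio of 0.864 without overlap. Here the PRMT1FL mice were further apart (SD 157) than the PRMT1Cx3cr1-KO mice (SD 25.4). Without PRMT1FL mouse 2 the median log2 fold change was -0.19, with 4 of the 42 above 0, and without PRMT1FL mouse 1 it was -0.33. With classes set without thinning, replication UMIs per mitosis-positive cell, not scaled for depth, overlapped (12.7 and 15.4 against 12.4 and 13.9). E2f1 measured 28.4 and 38.9 CPM in PRMT1FL mice and 24.4 and 25.4 CPM in PRMT1Cx3cr1-KO mice (log2 fold change -0.44, adjusted p = 0.271). Without PRMT1Cx3cr1-KO mouse 1, 9 of the 42 were called lower, beside 4.15% of all genes, and without mouse 2, 3 were (E2f1, Ccne2 and Atad2), beside 1.05%. The mitotic list, which defined the class, summed to 3148 and 3363 CPM against 2948 and 3228 CPM and overlapped between genotypes. Lower values in this class were not particular to the 42 genes. Only 1 of the 30 mitotic genes had a log2 fold change above 0 (median -0.11), and 10 of the 52 further replication-pathway genes did (median -0.18).

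The difference between these fold changes was itself tested as the interaction of genotype and class. For 14 of the 42 genes the step from mitosis-negative to mitosis-positive cells was smaller in PRMT1Cx3cr1-KO mice (edgeR, adjusted p at most 0.05), where 0.58% of all genes were called in that direction. All 42 estimates were below 0, with a median of -0.57 on the log2 scale. The smaller step was not particular to them: in the mitotic list, which defined the classes, all 30 estimates were below 0, with a median of -0.89, and 9 were called. Tk1 had -1.44 (SE 0.14, adjusted p = 7.8e-05), Ccne2 -1.55 (SE 0.21, adjusted p = 0.00108) and Rrm2 -1.30 (SE 0.23, adjusted p = 0.0104). The other genes called were Mcm2, Mcm4, Mcm5 and Mcm7 of licensing, Gins2, Pcna and Rfc3 of the helicase and fork, Chaf1a, Chaf1b and Uhrf1 of chromatin, and E2f1. Without PRMT1Cx3cr1-KO mouse 2 the count was 4 (E2f1, Ccne2, Tk1 and Rrm2; 0.457% of all genes) and without mouse 1 it was 29 (1.29%). Without PRMT1FL mouse 1 it was 28 (1.35%), without PRMT1FL mouse 2 it was 9 (0.632%), and with the stricter negative class it was 7 (0.467%). The residual mitotic level of the negative class moved with the genotype, as given above, and its part in this result was not tested.

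**Figure D4:**
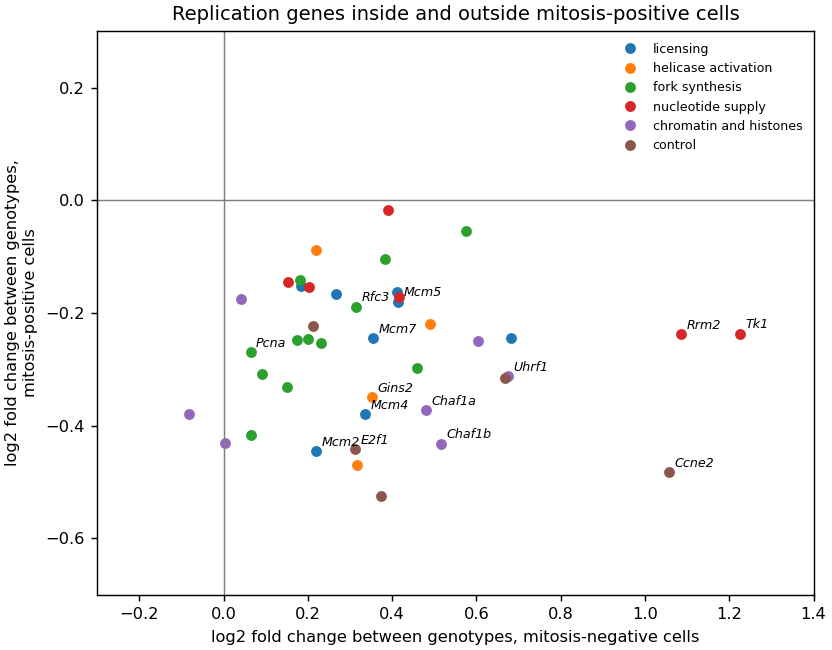
Log2 fold change between genotypes of each of the 42 replication genes in mitosis-negative cells (horizontal axis) and in mitosis-positive cells (vertical axis), coloured by role; the 14 genes whose class difference differed between genotypes are named. All points lie below 0 on the vertical axis and 41 lie right of 0 on the horizontal one, with Tk1, Rrm2 and Ccne2 farthest right.

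Counted as cells, those with UMIs of 2 or more replication genes after thinning made up 18.1 and 17.3% of PRMT1FL microglia and 21.7 and 24.6% of PRMT1Cx3cr1-KO microglia. Mice of different genotypes did not overlap; the smallest 2-sided p that exact permutation of 2 against 2 mice allows is 0.333. Without thinning the shares were 55.7 and 57.8% against 56.7 and 61.1%, which do overlap. Those that were also mitosis-positive made up 3.50 and 3.46% of PRMT1FL and 5.68 and 7.77% of PRMT1Cx3cr1-KO microglia, without overlap. In cells set aside as other types, 2 or more replication genes were found in 11.7% of 230 astrocyte and choroid cells (exact 95% interval 7.88 to 16.6, median 3569.5 UMIs) and in 13.7% of 51 neutrophil cells (5.70 to 26.3, median 6711 UMIs), and the mitosis-positive criterion was met by 2.17% (0.710 to 5.00) and 9.80% (3.26 to 21.4) of them. Cells with 2 or more replication genes and no mitotic gene made up 12.4 and 11.6% against 12.9 and 13.1%. The direction depended on depth: thinned to 1000 UMIs the shares were 5.66 and 5.21% against 6.78 and 7.15%, and without thinning 30.3 and 31.0% against 25.6 and 22.8%. At 2000 UMIs the same criterion was met by 10.0% of the astrocyte and choroid cells (6.45 to 14.6) and 3.92% of the neutrophil cells (0.478 to 13.5). These set-aside cells were pooled over mice and came mostly from PRMT1FL mice. Before the depth limit, PRMT1FL mice gave 168 and 121 astrocyte and choroid cells, against 35 and 24 from PRMT1Cx3cr1-KO mice. Some of them met the mitosis-positive criterion, so whether the microglial share exceeds a background cannot be told from them.

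Requiring 4 or more replication genes, a limit set after seeing the data, left 1.66 and 1.75% of PRMT1FL and 2.37 and 3.11% of PRMT1Cx3cr1-KO microglia without a mitotic gene. The same criterion was met by 0.870% of the astrocyte and choroid cells (0.105 to 3.11) and by 0 of 51 neutrophil cells, which allows a share of up to 5.88%. The genotypes did not overlap at this depth but did when thinned to 1000 UMIs (0.711 and 0.852% against 0.765 and 1.16%). All 4 shares lay above the value in astrocyte and choroid cells, but its interval, from 2 cells, reaches past those of 3 mice. That of PRMT1Cx3cr1-KO mouse 2 lay at its upper limit. For the reasons given above, these cells cannot show whether any of the 4 shares exceeds a background. Within mitosis-positive cells, the share with 2 or more replication genes was 49.4 and 54.8% in PRMT1FL mice, against 52.0 and 51.1% in PRMT1Cx3cr1-KO mice, an overlap. Among cells with 2 or more replication genes, the mitosis-positive share was 19.4 and 20% against 26.2 and 31.6%. Thinned to 1000 UMIs this share was 21.3 and 24.1% against 22.9 and 29.8%, an overlap. Without thinning it was 23.3 and 23.1% against 32.2 and 41.2%. Intervals cover counting error only.

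**Figure D5:**
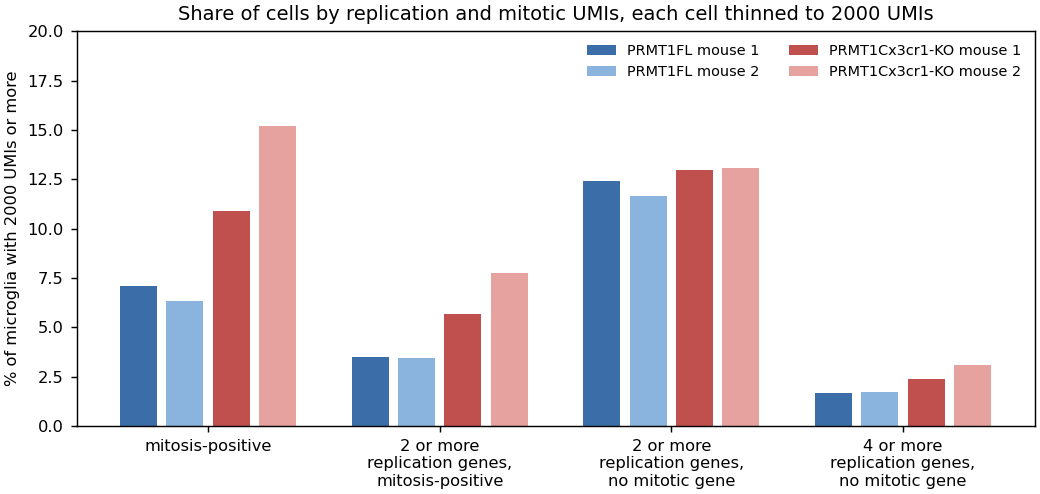
Share of microglia with at least 2000 UMIs (vertical axis, percent) that were mitosis-positive, or carried 2 or more replication genes with mitosis-positive status, 2 or more replication genes without any mitotic gene, or 4 or more without any mitotic gene, 1 bar per mouse after thinning to 2000 UMIs. The mitosis-positive share runs from 6.31 to 15.2%, while cells with replication but no mitotic transcripts lie between 11.6 and 13.1% at this depth.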

How the data were processed

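Single-cell libraries of 4 mice were analysed. The deposited values are raw counts of UMIs per gene and cell barcode, which the authors made with Cell Ranger 3.1.0 on build mm10, without normalization; Seurat 3.2.0 and Scanpy 1.5.2 stand in the submitters' processing notes. As in the methods, a cell needed 200 to 6000 genes and no more than 10% of its UMIs from mitochondrial genes. A cell with UMIs of 3 or more markers of another cell type that made up at least 0.2% of its UMIs was set aside, 92 to 352 cells per library. No doublet caller was run, and doublets can carry transcripts of both classes; an alternative left out the deepest 5% of cells. UMIs were summed per mouse, filtered with filterByExpr, scaled by TMM, and tested with edgeR 4.0.16 (R 4.3.3) by the quasi-likelihood test with Benjamini-Hochberg adjustment; CPM of single genes are TMM-scaled, in the classes over the 8 class sums, and CPM of markers and of sums over lists are scaled by total UMIs alone. DESeq2 1.42.0 was an alternative. The procedure was tested on simulated data. Shallow cells (7.50 to 10.2% of microglia, under 2000 UMIs) took no part in class comparisons. Classes and class sums come from the same mice, so genotype comparisons in them share samples.

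The 42 genes and all lists were chosen with earlier results of these data known. Full statistics are given, in each role group, for the 2 genes with the highest mean CPM and the one with the largest absolute log2 fold change; for the mitotic list, for the 4 genes with the highest mean CPM; other single values serve as exceptions or extremes beside a count. Rrm2 was given in full after its values were seen, as the gene with the lowest adjusted p. Promoters were matched by symbol and come from RefSeq, and gene coordinates are those of GENCODE on GRCm38. Each library is 1 mouse. Depth was 76943248 to 99559644 UMIs per library, which limits the precision of genes near 1 CPM.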

Additional observations from a re-analysis of the deposited data

Results flagged for a closer look

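The interaction of genotype and mitosis class met the test of a difference between groups for 14 of the 42 replication genes. Each had a smaller step from mitosis-negative to mitosis-positive cells in PRMT1Cx3cr1-KO mice (edgeR, adjusted p at most 0.05). In that direction 0.58% of all genes were called. The smaller step was not particular to the 42 genes: all 30 mitotic genes, which defined the classes, had estimates below 0 (median -0.89), and 9 were called. On the log2 scale the difference was -1.55 for Ccne2, -1.44 for Tk1 and -1.30 for Rrm2. It was -0.97 for Uhrf1, -0.93 for Chaf1b, -0.85 for Chaf1a, -0.75 for E2f1, -0.70 for Mcm4, -0.69 for Gins2 and -0.66 for Mcm2. The smallest of those called were -0.59 for Mcm7, -0.58 for Mcm5, -0.49 for Rfc3 and -0.31 for Pcna. Ccne2, Tk1 and E2f1 were called in all 6 alternatives of this test (classes at 1000 UMIs, the stricter negative class and each mouse left out), Rrm2, Uhrf1 and Gins2 in 5, and the other genes in 3 or 4.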

How the results depend on the processing

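Between genotypes 0 replication genes were called; DESeq2 called 5 (2.89% of all genes), no filter on low counts 22 (4.35%), all cells within the limits 2 (1.31%), and leaving out single mice gave 0 to 32 (0 to 8.01%). Of the 30 mitotic genes no filter called 30, all cells 7 and the replicate block 22. The median log2 fold change stayed between 0.25 and 0.43 when single mice were left out, and was 0.48 without the deepest 5% of cells; in the other alternatives it moved by less than the SD between mice, 0.11. The labels do not say whether the replicate numbers pair the mice. Deviations of mice 1 of the 2 genotypes from their group means had a correlation of 0.13 over 5000 genes, which does not settle it. A replicate block gave 3 replication genes called in all microglia, Tyms, Tk1 and Rrm2 (2.42% of all genes). It gave 1 higher in mitosis-negative cells (1.24% of all genes) and 0 lower in mitosis-positive cells (0.787%). Mitosis-negative cells gave 1 gene, 0 with classes at 1000 UMIs (0.411% of all genes), 0 with no mitotic UMI before thinning, and 0 to 18 without single mice. Mitosis-positive cells gave 0 lower, and 0 to 9 without single mice. Without single mice, the counts of 0 in both classes came from the fits without a PRMT1FL mouse. Almost no gene at all was called in those fits, so these counts say nothing about the 42 genes. Between classes 42 genes were called higher (25.3% of all genes), and 41 to 42 in every alternative (22.7 to 28.7%). The interaction gave 14, 20 at 1000 UMIs (1.07% of all genes), 7 with no mitotic UMI before thinning and 4 to 29 without single mice. The difference in cells with 2 or more replication genes, 5.45 percentage points, was 3.58 thinned to 1000 UMIs, 2.09 without thinning and 2.89 for 4 or more genes. Of single genes, 4 changed sign when single mice were left out: Mcm2 ran from -0.017 to 0.32, Pold1 from -0.0077 to 0.18, Atad2 from -0.088 (without PRMT1Cx3cr1-KO mouse 2; -0.0016 without PRMT1FL mouse 1) to 0.13 and Cdca7 from -0.22 to 0.10 (without PRMT1Cx3cr1-KO mouse 1; 0.0019 without PRMT1FL mouse 1). The causes were not tested. The stricter classes, the 4-gene limit and all alternatives of the interaction were chosen after seeing the data.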

Other observations

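Among the 52 further replication-pathway genes, E2f2 and E2f3, activator E2F factors, were the 2 called higher in the mitosis-negative cells of PRMT1Cx3cr1-KO mice, where 0.618% of all genes were; they were singled out after their values were seen. In those cells E2f2 measured 3.32 and 3.45 CPM in PRMT1FL mice and 6.04 and 5.56 CPM in PRMT1Cx3cr1-KO mice (log2 fold change 0.77, SE 0.11, adjusted p = 0.0465, edgeR). E2f3 measured 19.1 and 18.6 CPM against 25.9 and 25.3 CPM (0.44, SE 0.06, adjusted p = 0.0489). Both were also called among cells without a single mitotic UMI, with log2 fold changes of 0.87 (adjusted p = 0.0432) and 0.47 (adjusted p = 0.0325). With classes at 1000 UMIs neither passed (adjusted p = 0.0568 and 0.0659), nor did either without PRMT1FL mouse 1 (0.397 and 0.355) or mouse 2 (0.440 and 0.481), where at most 2 genes in all were called higher; without either PRMT1Cx3cr1-KO mouse both passed. In all microglia they missed the threshold (adjusted p = 0.0541 and 0.0793). Unlike most replication genes, both had a higher level in PRMT1Cx3cr1-KO mouse 1 than in mouse 2.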
